A study of Homo sapiens with 4 samples.

Results

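The genes described here are 10 human protein-coding genes that descend from retroviruses, retrotransposons or DNA transposons: ERV3-1, ERVMER34-1, ERVW-1, ERVFRD-1, PEG10, RTL1, L1TD1, ARC, PNMA1 and PGBD1. They were chosen by name, with earlier results of these data known, as 10 of the 20037 protein-coding genes of the RefSeq table for GRCh38.p14. Every CHAF1A CUT&Tag peak from 10 kb before to 10 kb past each gene was taken. CHAF1A belongs to CAF-1, a histone chaperone, and CUT&Tag tethers a transposase to an antibody so that sequenced fragments accumulate where the antibody's target lies. The cells were RBE, an established line of human intrahepatic cholangiocarcinoma, and received either a control siRNA (si-Ctrl, 2 samples) or siRNA against CHAF1A (si-CHAF1A, 2 samples) in Lipofectamine 3000, with harvest after 48 hours. The series title places the work within a study of how the RNA acetyltransferase NAT10 holds down transposable element expression. The data are 1 peak list per group, which does not keep the 2 samples of a group apart, so differences between the groups are described without a test. The list named NC is read as si-Ctrl and the list named si as si-CHAF1A.

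Domestication means that a host keeps a reading frame of a mobile element and uses its protein. Envelope genes of endogenous retroviruses became the syncytins, which fuse trophoblast cells in the placenta, and gag genes of Ty3/gypsy elements became PEG10, RTL1, ARC and the PNMA family, some of whose proteins still assemble into capsids. CAF-1 places histones H3 and H4 on newly copied DNA, and its loss is known to release endogenous retroviruses in mouse embryonic stem cells. The genes below are host genes in single copy; the interspersed repeats of the genome were not analysed here.

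The lists held 76313 control and 97653 siRNA peaks on the main chromosomes. Each peak carries the authors' fold enrichment, the linear ratio of reads piled up at the summit to the local background, and a −log10 q. Solving the deposited fold and p for each summit gave back the pileup in reads, and the most frequent background was 6.34 reads for control and 8.49 for siRNA peaks, a ratio of 1.34 that stands for depth below, since read totals were not used. Of 5 biliary epithelial markers, 5 had a control and 4 (all but KRT7) a siRNA peak within 1 kb of a gene end, against 1 and 1 of 5 trophoblast markers, 1 and 1 of 3 neuronal markers and 1 and 2 of 3 markers of pluripotent cells. By listed starts, 1 and 2 of 3 neuronal, 0 and 0 of 3 trophoblast and 0 and 0 of 1 pluripotent markers had one. No start was listed for the biliary markers. Of all protein-coding genes, 62.0% and 64.9% had a peak within 1 kb of a listed start. Their share at either gene end was not analysed here, so the marker counts do not show cell identity. More depth raises −log10 q, so values of the 2 lists are set side by side as descriptions. Binding of CHAF1A and access of the transposase to open chromatin cannot be told apart in these lists, a peak does not measure expression, and the level of CHAF1A after knockdown was not analysed here.

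The promoters of 4 members show the range of starts in this group. They run from 250 bases before to 50 bases after the annotated start, are RefSeq sequence of GRCh38.p14 and are written 5′ to 3′ along the gene. Capitals mark matches, on either strand, to CCAAT (the CCAAT box), GGGCGG (the GC box), CGGAAG (the core of ETS sites), TGACGTCA (the cAMP response element) or TATAAA (the TATA box). ERV3-1 and ERVMER34-1 are shown because a peak covered their start in at least 1 list. ERVW-1 (a peak in the siRNA list only) and PGBD1 (CpG-rich, no peak) were picked after their values had been seen. The only start listed for ERVW-1, at 92471424, lies inside this minus-strand gene, whose upper boundary is 92477946. Its window is therefore sequence from within the gene, not from its 5′ boundary.

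ERV3-1 promoter, chr7:65006638-65006937, minus strand: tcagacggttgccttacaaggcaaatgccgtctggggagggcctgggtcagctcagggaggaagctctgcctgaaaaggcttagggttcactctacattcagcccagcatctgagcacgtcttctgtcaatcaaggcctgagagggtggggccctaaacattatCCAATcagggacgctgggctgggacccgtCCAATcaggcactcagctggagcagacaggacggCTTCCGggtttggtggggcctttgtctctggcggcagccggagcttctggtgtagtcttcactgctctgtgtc

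ERVMER34-1 promoter, chr4:52751376-52751675, minus strand: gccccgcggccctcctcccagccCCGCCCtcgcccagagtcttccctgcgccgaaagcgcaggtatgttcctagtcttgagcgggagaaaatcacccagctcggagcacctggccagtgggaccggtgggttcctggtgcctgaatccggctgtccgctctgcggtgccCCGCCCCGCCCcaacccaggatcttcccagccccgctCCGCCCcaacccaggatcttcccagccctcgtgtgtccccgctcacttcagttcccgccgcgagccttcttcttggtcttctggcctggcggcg

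ERVW-1 promoter, chr7:92471375-92471674, minus strand: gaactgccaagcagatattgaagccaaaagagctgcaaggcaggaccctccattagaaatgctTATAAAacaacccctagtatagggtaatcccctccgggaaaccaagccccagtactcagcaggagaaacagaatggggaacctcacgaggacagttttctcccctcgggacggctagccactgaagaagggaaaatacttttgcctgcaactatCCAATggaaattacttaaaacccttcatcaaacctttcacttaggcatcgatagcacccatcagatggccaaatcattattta

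PGBD1 promoter, chr6:28281322-28281621, plus strand: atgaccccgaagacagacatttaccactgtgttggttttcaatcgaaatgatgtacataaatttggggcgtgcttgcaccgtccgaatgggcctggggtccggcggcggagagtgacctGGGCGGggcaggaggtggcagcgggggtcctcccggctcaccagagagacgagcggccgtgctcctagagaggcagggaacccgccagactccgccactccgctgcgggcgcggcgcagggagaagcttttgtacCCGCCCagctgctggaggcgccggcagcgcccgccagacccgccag

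The ERV3-1 promoter held 2 CCAAT boxes and 1 ETS core, and the ERVMER34-1 promoter held 4 GC boxes, of which 2 overlap by 1 base. The ERVW-1 window, at a start inside the gene, held 1 match to TATAAA and 1 to CCAAT, and the PGBD1 promoter 2 GC boxes. Among all 35116 promoters of this length, 34.6% held CCAAT, 45.0% GGGCGG, 19.5% CGGAAG, 1.85% TGACGTCA and 11.5% TATAAA. No promoter listed for a member held TGACGTCA. These matches describe the letters of the window and are not binding sites. The table listed a start for 6 members. ERVFRD-1, PEG10, ARC and PNMA1 had no entry and are placed by gene boundaries.

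Of the 10 genes, 7 had a control peak within 10 kb and 8 a siRNA peak, where 85.2% and 87.7% of all protein-coding genes had one. A peak in both lists was found near 7 members (82.9% of all genes), in the siRNA list only near ERVW-1 (4.86% of all genes) and in neither list near L1TD1 and PGBD1 (9.91% of all genes). No member had a peak in the control list only, as had 2.37% of all genes. Shares this close to the background, over 10 genes, do not set the group apart. The windows of the members held 19 control and 24 siRNA peaks, or 5.83 and 7.37 peaks per 100 kb, against 4.02 and 5.08 per 100 kb over all protein-coding genes. ARC and RTL1 alone held 11 of the 19 control peaks and 10 of the 24 siRNA peaks. The median member had 1 control and 2.5 siRNA peaks in a window whose median length was 31469 bp, and the median gene had 3 and 3 in 44115 bp.

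**Figure D1:**
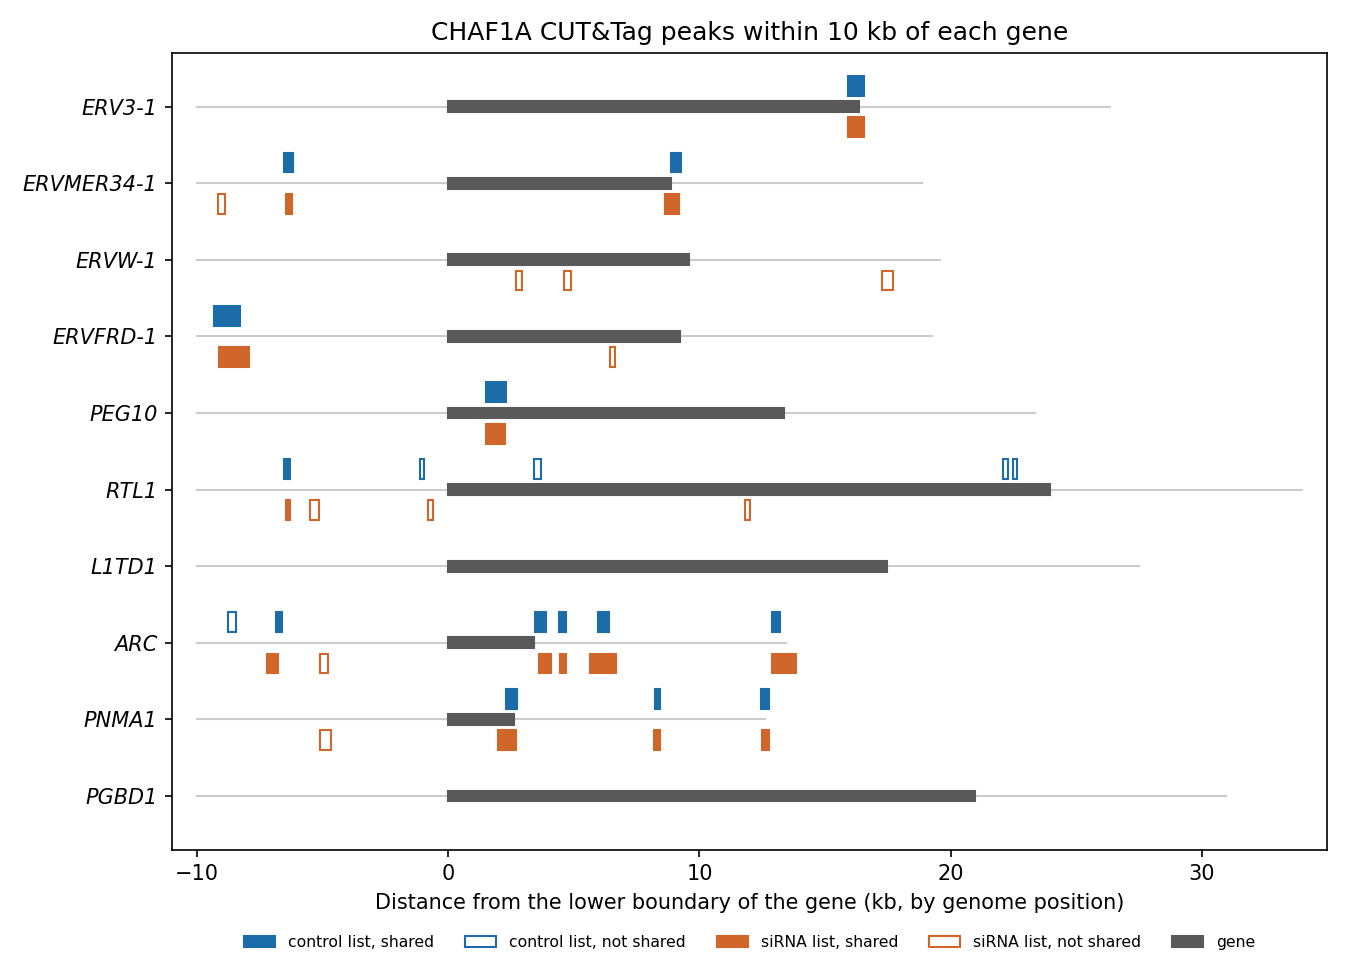
Peaks of both lists (blue boxes above the line, control; orange boxes below, siRNA; filled where a peak of the other list overlaps by at least 1 bp) around each gene (grey bar), in kb from its lower boundary. ERV3-1 and PEG10 have 1 filled pair each, ARC and RTL1 have the most peaks, ERVW-1 has open orange boxes only, and L1TD1 and PGBD1 have none.

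Of the 19 control peaks, 14 (73.7%, 95% exact binomial interval 48.8 to 90.9) were overlapped by a siRNA peak, and of the 24 siRNA peaks, 14 (58.3%, 36.6 to 77.9) by a control peak. Over the whole lists these shares were 61.9% and 47.5%, inside both intervals. The intervals cover counting error only and treat the peaks as independent, although ARC and RTL1 held 11 of the 19 and 10 of the 24. The shared peaks were mostly the stronger ones. In the control list the 14 shared peaks had a median −log10 q of 20.7 and the other 5 lay between 4.03 and 8.56. In the siRNA list the shared peaks had a median of 16.4 and the other 10 lay between 4.03 and 13.2. The same held over the whole lists, where the median was 14.1 for shared and 6.78 for other control peaks. Pileup and background of the siRNA summits were also scaled to the common background of the control list, a calculation added after the data had been seen. Of the 10 siRNA peaks without a partner, 8 still passed the −log10 p of 5 at which the lists were called. The same was true of 87.2% of all such siRNA peaks. These peaks had been picked by passing in the siRNA list, so the scaling does not measure control signal at them.

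Among the envelope-derived genes, ERV3-1 carried its peak on its own start. ERV3-1 (chromosome 7, 64990356 to 65006687) encodes an envelope protein of the HERV-R family. In control cells its peak reached from 65006280 to 65006892, was enriched 9.58-fold (−log10 q 60.4) and had 98 reads at a summit 64 bp upstream of the start. The siRNA peak spanned nearly the same bases, 65006280 to 65006887, at 4.61-fold (−log10 q 18.1), with 55 reads over a background of 11.1. Fold and pileup were thus lower in the siRNA list, whose local background there was higher than the 9.34 reads of the control list. The readthrough gene ERV3-1-ZNF117 starts 5 bp from the control summit, at 65006746, so the peak cannot be given to ERV3-1 alone. A further listed ERV3-1 start, 7245 bp inside the gene and with a promoter of 4 CpG dinucleotides, had no peak within 1 kb.

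ERVMER34-1 (chromosome 4, 52742553 to 52751425), whose envelope protein HEMO is shed into blood, had a peak at its start in both lists, at a rank of 29.4% by −log10 q in the control and 66.9% within the siRNA list. The control peak (52751437 to 52751808) began 12 bp upstream of the start and was enriched 3.55-fold (−log10 q 6.71, 28 reads). The siRNA peak (52751200 to 52751736) covered the start and the whole 300-base promoter shown above, at 3.81-fold (−log10 q 11.5, 44 reads). The lncRNA gene LOC107986281 runs across this start from 52750967 in the other direction. A stronger site of the ERVMER34-1 window lay past the 3′ end, 15198 bp downstream of the start by the control summit, where the control peak was enriched 7.0-fold and the siRNA peak 5.37-fold, with no gene of the table under it. A siRNA peak without a partner lay further down at 52733389 to 52733668 (−log10 q 13.2), the strongest of the siRNA peaks that were not shared.

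ERVW-1 (chromosome 7, 92468380 to 92477946) encodes syncytin-1 and was the only member with peaks in 1 list only. Its 3 siRNA peaks had fold enrichments of 3.10, 3.17 and 3.43 and −log10 q of 7.28, 8.15 and 7.26. Their pileups were 38, 41 and 32 reads. Scaled to the control background, they would have had −log10 p of 7.40, 7.96 and 7.05, past the threshold of 5. Of all siRNA peaks without a partner, 87.2% passed it too. The summits were selected in the siRNA list, so the scaling does not measure control signal, and a role of depth was not tested. The listed start, 92471424, lies inside the gene and not at its upper boundary. The peak nearest to that start, at 92471065 to 92471332, ended 92 bp downstream of it and covered no base of the window shown above. The control list had no peak within 10 kb, and its nearest lay 19972 bp from the gene, at the start of GATAD1, the gene that contains ERVW-1. All 3 peaks are of middling or low rank in the siRNA list, where 39.2%, 47.9% and 39.0% of peaks had the same or a lower −log10 q, and none remained at −log10 q of at least 10.

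ERVFRD-1 (chromosome 6, 11102489 to 11111725), the gene of syncytin-2, lies inside SMIM13. The strong peak of its window sat on the SMIM13 start (11093834), not at ERVFRD-1: 11093170 to 11094180 in the control list with a fold enrichment of 7.71 and 97 reads, and 11093359 to 11094551 in the siRNA list with 6.74 and 93 reads. Inside ERVFRD-1 there was 1 weak siRNA peak (11108923 to 11109112, fold enrichment 2.68, −log10 q 4.03, 27 reads). It was the weakest of the member peaks in that list and would not pass the calling threshold at the control background (−log10 p 4.80). Of the envelope-derived members, then, ERV3-1 and ERVMER34-1 had a peak at their start in both lists, and the syncytin genes had none there in the control list as far as their starts were listed, with ERVFRD-1 judged by its boundaries.

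PEG10 had the strongest peak of the group by −log10 q and by fold in both lists. PEG10 (chromosome 7, 94656325 to 94669695) is an imprinted, paternally expressed gene needed for the placenta, and the neighbouring gene SGCE, imprinted alike, has a boundary 192 bp from its lower one. The control peak lay inside the gene at 94657819 to 94658631, with its summit 1951 bp above the lower boundary, an enrichment of 10.1-fold and a −log10 q of 326. The siRNA peak spanned 94657819 to 94658569 with its summit at the same base, an enrichment of 8.68-fold and a −log10 q of 198. Within their lists these peaks ranked at 99.3% and 98.9% by −log10 q. The pileup was 528 reads over a background of 51.2 in the control list and 354 reads over 39.9 in the siRNA list, so both pileup and local background were lower in the siRNA list, unlike the list backgrounds. No other peak lay within 10 kb of PEG10, and the next lay over 34 kb away, at gaps of 35158 bp (control) and 34880 bp (siRNA).

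RTL1 (chromosome 14, 100879753 to 100903722), the other imprinted Ty3/gypsy gene, had many weak peaks and 1 strong site outside the gene. The strong site lay past the 3′ end of the gene, 30335 bp downstream of the start, at 100873203 to 100873473 in the control list (fold enrichment 8.95, −log10 q 80.0, 138 reads) and 100873288 to 100873473 in the siRNA list (7.88, 91.4 and 174 reads), with summits 1 bp apart. The other 4 control and 3 siRNA peaks had no partner, with −log10 q from 4.03 to 8.56 and from 4.31 to 7.74. None lay within 1 kb of the start at 100903722. The 2 nearest to it were control peaks at 100902230 to 100902401 and 100901829 to 100902022, 1379 and 1800 bp inside the gene, where the gene overlaps the lncRNA MEG8.

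The RTL1 locus also encodes microRNAs on the opposite strand, some of which are known to cleave the RTL1 transcript. The hairpins MIR431, MIR433, MIR127, MIR432 and MIR136 lie within the RTL1 boundaries. MIR337, MIR665 and MIR370 lie within 10 kb but outside these boundaries, and so not opposite RTL1 as annotated. A siRNA peak without a partner (100874266 to 100874588, fold enrichment 2.53) covered the whole MIR337 hairpin at 100874493 to 100874585. A control peak without a partner (100883161 to 100883447, fold enrichment 2.67) lay 86 bp from MIR127, which is fully complementary to RTL1. The mature RNAs of these 2 sites, from RefSeq and with the seed (bases 2 to 8) in capitals, share no seed.

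hsa-miR-337-5p: gAACGGCUucauacaggaguu

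hsa-miR-337-3p: cUCCUAUAugaugccuuucuuc

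hsa-miR-127-5p: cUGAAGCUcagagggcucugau

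hsa-miR-127-3p: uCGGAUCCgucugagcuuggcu

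ARC had the most peaks of all members, 6 in each list, and none of the summits lay inside the gene. ARC (chromosome 8, 142611049 to 142614479) is an immediate early gene of neurons whose Gag-like protein forms capsids that carry RNA between cells. The peak just above its upper boundary spanned 142614485 to 142614930 in the control list (fold enrichment 3.54, −log10 q 26, 111 reads) and 142614651 to 142615156 in the siRNA list (2.35, 12.2 and 107 reads), with summits 5 bp apart, 180 and 175 bp past the boundary. The highest fold in the window was 9762 bp above the gene, with 4.97 for the control and 3.96 for the siRNA peak. Folds near ARC were low for the number of reads: its control summits had 50 to 119 reads over local backgrounds of 20.5 to 31.7, and its siRNA summits 71 to 139 reads over 30.9 to 46.8, all far above the list backgrounds of 6.34 and 8.49. With a reciprocal overlap of 50% in place of 1 bp, 2 of the 5 shared control peaks of ARC stayed shared.

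PNMA1 (chromosome 14, 73711783 to 73714384), a Gag-derived gene known as an antigen in paraneoplastic neurological disease, had a peak across its upper boundary. It spanned 73714087 to 73714506 in the control list (fold enrichment 3.88, −log10 q 15.4) and 73713779 to 73714466 in the siRNA list (2.97 and 10.3), with 58 reads at either summit. The other shared sites of the window, at 73719994 to 73720214 and 73724226 to 73724555 in the control list, lay in the neighbouring gene MIDEAS with fold enrichments of 3.20 and 2.87. The latter is the shared site nearest to the edge of the window, with its control summit 9910 bp above the gene. Just outside the window lay a siRNA peak 10944 bp from PNMA1 (−log10 q 4.24), a control peak 11126 bp from ARC (7.07) and a control peak 11551 bp from PNMA1 (8.62). A siRNA peak below the gene (73706670 to 73707123, fold enrichment 2.85) had no partner.

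L1TD1 and PGBD1 had no peak within 10 kb in either list. L1TD1 (chromosome 1, 62194849 to 62212328) descends from the first open reading frame of LINE-1 and is best known from pluripotent and germ cells. Its nearest peak was 223795 bp away in the control list and 223756 bp away in the siRNA list, the longest gaps of the group. PGBD1 (chromosome 6, 28281572 to 28302549) joins a SCAN domain to a piggyBac transposase. Its nearest control peak was 14217 bp away with a −log10 q of 4.37, and its nearest siRNA peak 19592 bp away with 3.90, both close to the lowest values of their lists (2.98 and 3.07). A peak list shows only what passed the threshold, so lower signal at these genes was not analysed here.

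**Figure D2:**
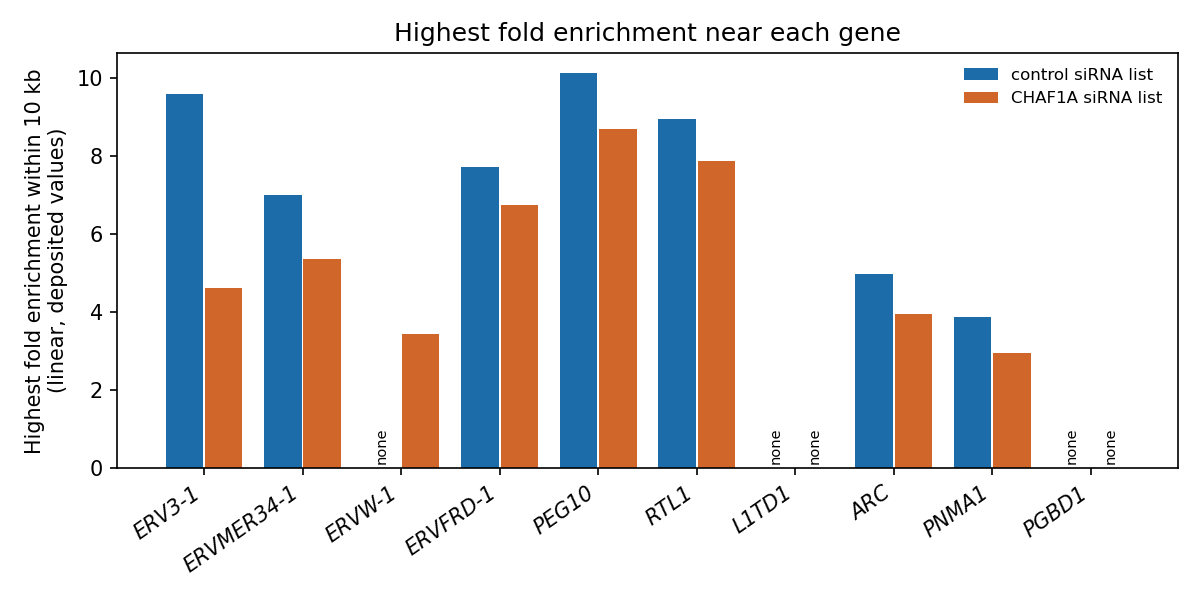
Highest deposited fold enrichment (linear, bars from 0) among the peaks within 10 kb of each gene, for the control list (blue) and the siRNA list (orange), with 1 list per group and so no error bar. PEG10 and ERV3-1 stand highest in the control list at 10.1 and 9.58, PEG10 also in the siRNA list at 8.68, and ERV3-1 is at 4.61 there.

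To set shared peaks side by side, each summit pileup was divided by the common background of its list, the 1 measure of depth used here. The ratio of siRNA to control was under 1 at 10 of the 14 shared pairs, where 69.4% of all 47221 shared pairs were, and its median was 0.88 against 0.88 over all pairs. The group as a whole therefore stood where shared peaks stand in general. The counting interval lay wholly below 1 at 5 of the 14 pairs and wholly above 1 at 0, where it lay below 1 at 21.6% and above 1 at 3.05% of all shared pairs. The 5 pairs were those of ERV3-1 (0.419, 95% interval 0.296 to 0.589), PEG10 (0.501, 0.436 to 0.574), the downstream site of ERVMER34-1 (0.680, 0.473 to 0.977), the SMIM13 start in the ERVFRD-1 window (0.716, 0.533 to 0.961) and the peak just above ARC (0.720, 0.547 to 0.947). The other 9 pairs ranged from 0.747 at PNMA1 to 1.26 at ARC, and the ERVMER34-1 start stood at 1.17 (0.714 to 1.96). The intervals cover counting error of the reads at the summit only, not the spread between samples or the choice of a summit as the highest point.

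Over the whole lists the ratio was lower at strong than at weak control peaks. When control peaks were put into 10 equal classes by −log10 q, the median ratio fell from 1.15 in the weakest class to 0.739 in class 9 and was 0.750 in the strongest. The control pileup enters both the class and the ratio, which by itself pushes them in opposite directions. ERV3-1, PEG10, ERVFRD-1 and RTL1 had pairs in the strongest class. Within it, 6.99% of pairs had a lower ratio than ERV3-1 and 14.6% a lower one than PEG10, while the ERVFRD-1 pair was near the middle (44.8%) and the RTL1 pair (ratio 0.942, 0.749 to 1.19) above most (78.1%). Against all pairs regardless of strength, 1.79% were lower than ERV3-1 and 4.53% lower than PEG10. The strongest class spans peaks of unequal strength, as the −log10 q of 60.4 at ERV3-1 and 326 at PEG10 show, and no closer match was made. In the ERV3-1 pair the summits lay 260 bp apart, and in the PEG10 pair at the same base.

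**Figure D3:**
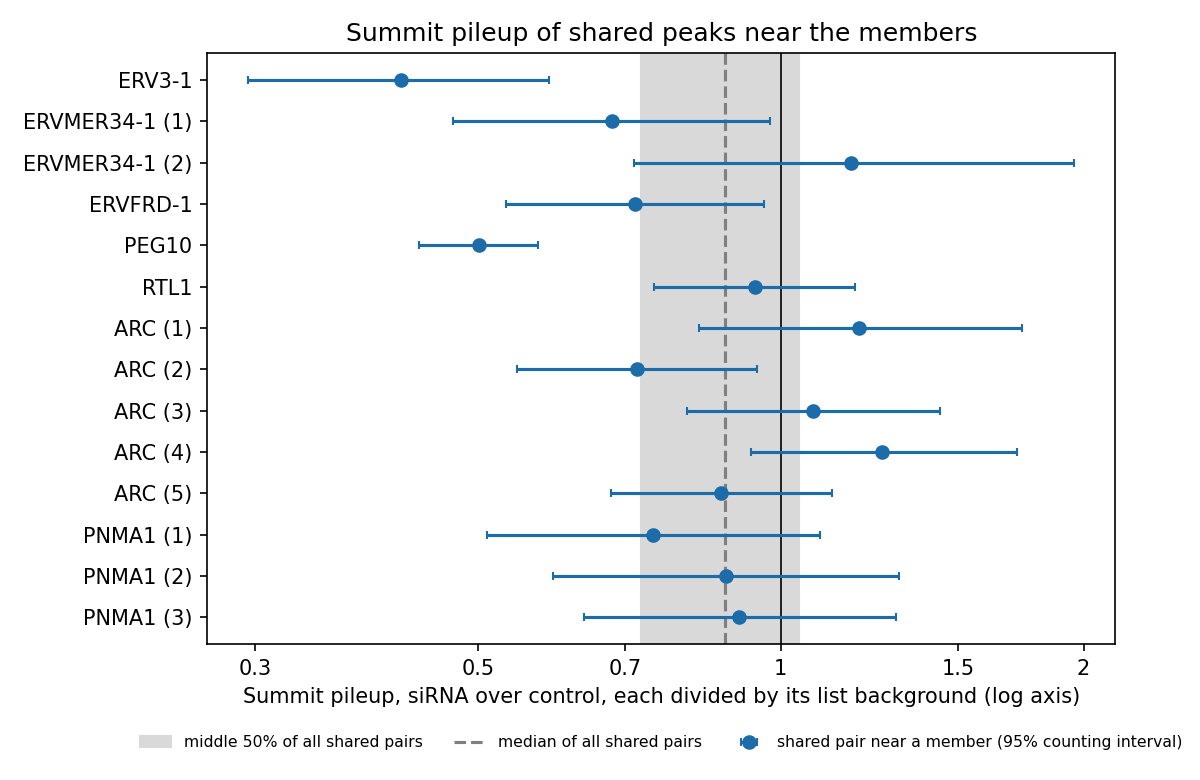
Summit pileup in the siRNA list over that in the control list, each divided by the common background of its list (log axis), for the 14 shared pairs near the members, numbered by genome position where a gene has several. Bars are 95% counting intervals, the dashed line is the median of all shared pairs (0.88) and the grey band their middle 50% (0.726 to 1.04). ERV3-1 and PEG10 lie left of the band at 0.419 and 0.501.

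Of the 6 members with a listed start, 2 had a control and 3 a siRNA peak within 1 kb of it, where 62.0% and 64.9% of 15843 protein-coding genes had one, and 3 had none in either list (30.9% of all genes). The start itself was covered by a control peak in 1 member and by a siRNA peak in 2 (49.0% and 48.7% of all genes). Peaks were more frequent at starts with more CpG dinucleotides, up to the fourth of 5 classes. Of promoters with 0 to 3 CpG dinucleotides, 10.4% had a control peak within 1 kb, of those with 9 to 20, 54.3%, of those with 21 to 31, 75.5%, and of those with 32 to 77, 73.7%. The ERVMER34-1 promoter (24 CpG) and the PGBD1 promoter (27 CpG) fall in the same class, with a peak in both lists at the former and none at the latter. ERV3-1 (9 CpG) and L1TD1 (14 CpG) form a like pair one class below. ERVW-1 (5 CpG, at its start inside the gene) and RTL1 (6 CpG) belong to a class in which 24.3% of promoters had a control and 29.0% a siRNA peak.

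**Figure D4:**
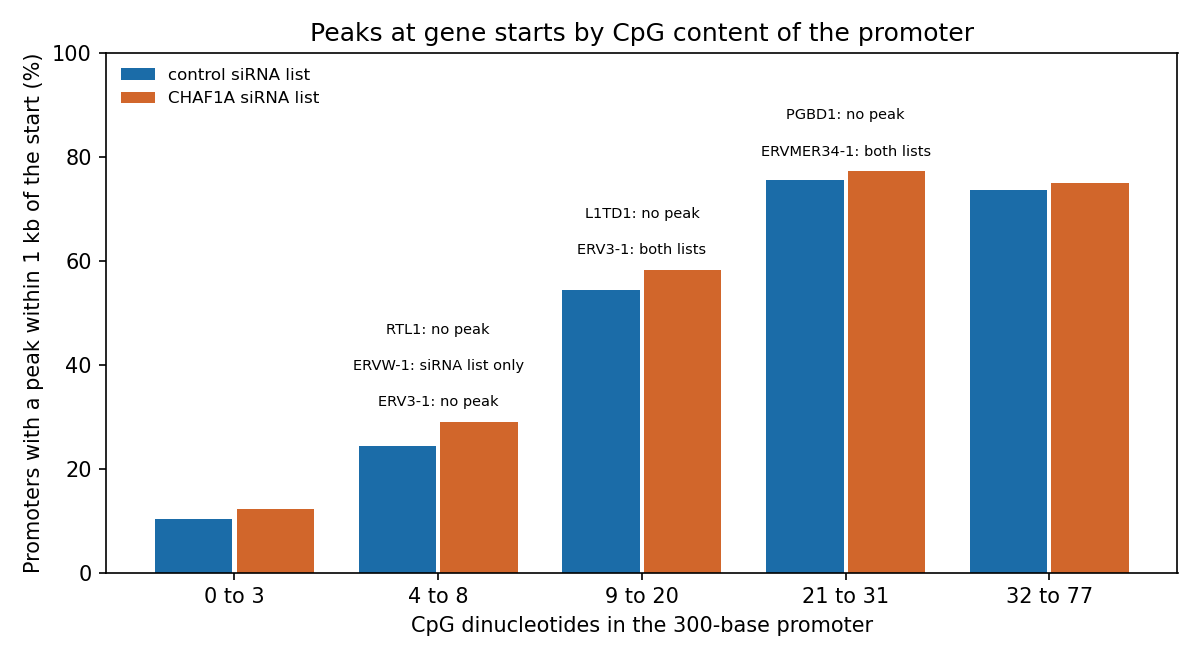
Share of 300-base promoters with a peak within 1 kb of the start (%), in 5 classes by number of CpG dinucleotides, for the control list (blue) and the siRNA list (orange), with each listed start of a member written above its class. The control share rises from 10.4% in the lowest class to 75.5% in the fourth and is 73.7% in the fifth. ERV3-1 appears in 2 classes because 2 starts are listed for it.

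A wider list of 60 other genes derived from mobile elements shows where the 10 sit. Of these, 50 had a control and 49 a siRNA peak within 10 kb (83.3% and 81.7%). Both kinds were near 45 genes, a control peak alone near 5, a siRNA peak alone near 4 and none near 6. The 60 are not all separate protein-coding loci. RTL8B and RTL8C share their strongest peak in each list, and ERVK13-1 is listed as a lncRNA. ASPRV1, annotated from 69932717 to 70087375, had 12 control and 19 siRNA peaks in its window. Of the genes from DNA transposons, 30 of 30 were near a control and 29 of 30 near a siRNA peak, where 85.2% and 87.7% of all protein-coding genes were. They include the pogo-derived TIGD genes, JRK, CENPB (the centromere protein) and POGZ, with 13 of 13 in each list. The 30 genes classed here with retroelements had 20 in each list. Among them, GIN1, KRBA2 and SCAND3 had peaks in both lists, and the origin of these genes was not analysed here. Of the 14 genes of the list on chromosome X, 8 had a control and 9 a siRNA peak, and chromosome X as a whole had peaks near 63.2% and 67.1% of its genes against 86.5% and 88.9% on the autosomes. On autosomes 13 and 12 of 17 genes classed with retroelements had a peak. Each of these 30 genes from DNA transposons thus had a peak in at least 1 list. PGBD1 had none, as had 9.91% of all protein-coding genes, and its piggyBac-derived relatives PGBD2, PGBD4 and PGBD5 had one in both.

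The strongest control peaks at starts in the wider list were at FAM200B (fold enrichment 15.6, −log10 q 1043) and THAP9 (12.1 and 119), both from DNA transposons, at GIN1 (15.1 and 218), which holds an integrase-like domain, and at KRBA2 (7.40 and 79.1), listed as KRABD2. All 4 had a siRNA peak there too, with folds of 14.2, 9.46, 11.3 and 6.77. Whether other genes start at these peaks was not analysed here, so the peaks cannot be given to the 4 genes alone. Within 10 kb, peaks in the control list only were found at RTL9 (−log10 q 14.2), RTL6 (9.15), PNMA2 (8.57), PGBD3 (8.49) and ERVH48-1 (6.61), and in the siRNA list only at NYNRIN (24.4), CCDC8 (6.91), PNMA3 and PNMA6A. The last 2 are neighbours on chromosome X that share a siRNA peak (6.34). The NYNRIN peak given here crosses the edge of the window and is overlapped by a control peak that lies outside it. Among the genes with a control peak alone, RTL9 was the one with a −log10 q over 10.

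**Figure D5:**
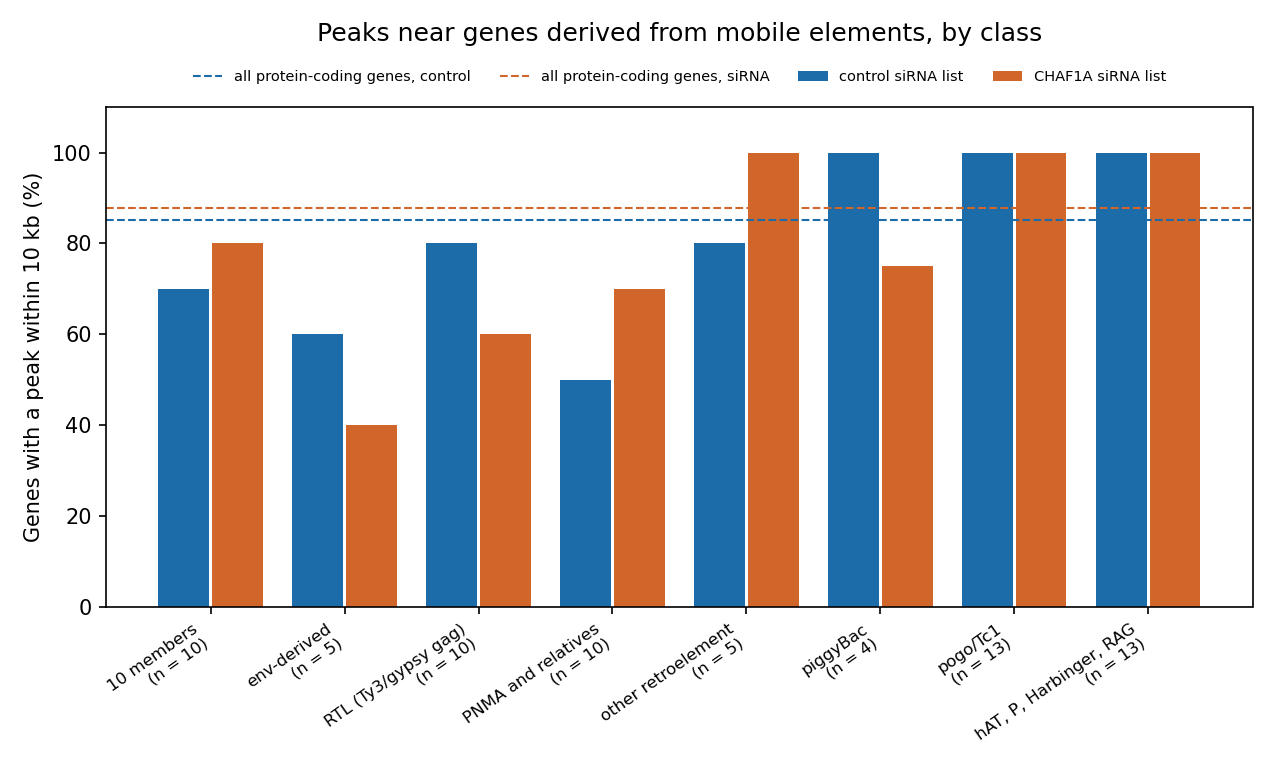
Share of genes with a peak within 10 kb (%) for the 10 members and for 7 classes of the wider list, in the control list (blue bars) and the siRNA list (orange bars), with the number of genes under each class. Dashed lines give the share of all protein-coding genes (85.2% and 87.7%). The pogo/Tc1 class and the class of hAT, P element, Harbinger and RAG genes are complete in both lists, and the members stand at 70.0% and 80.0%.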

How the data were processed

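CHAF1A CUT&Tag peaks were analysed from 2 lists, 1 for each siRNA group of 2 samples. MACS2 2.1.2, Bowtie2 2.2.5, fastp 0.20.1, deepTools 3.4.3 and the hg38 build are named, per the submitters' processing notes, which give them no order. For pooling of samples and for a control library, details were not given in the sources used here. Fold enrichment was deposited by the authors as a linear ratio, and p-value and q-value as −log10. Summit offsets are as deposited, and positions are printed counting from 1.

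Only chromosomes 1 to 22, X and Y were used, without 868 control and 886 siRNA peaks elsewhere. Pileup and background at each summit were solved from the deposited fold, (pileup + 1)/(background + 1), and the Poisson p-value. The pileup came out whole within 0.02 reads at 99.98% of peaks in each list. The solver and the overlaps were tested on simulated data. Sharing meant overlap of at least 1 bp. Read totals were not used here. Ratio intervals are exact (95%, binomial on the 2 pileups). Gene positions, starts and sequences came from RefSeq tables of GRCh38.p14, of which the promoter table listed 6 of 10 members. Marker genes were counted at either gene end besides the start that had been planned, because the table did not list a start for each of them.

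The members and gene lists were chosen with earlier results of these data known. The text names all members, the genes at their peaks, and from the wider list the 4 strongest control starts and up to 4 genes per direction with a peak in 1 list only. ERVH48-1, the TIGD genes, JRK, CENPB, POGZ, PGBD2, PGBD4, PGBD5, and the comparisons by chromosome X, CpG content and depth were added after values had been seen. With 1 list per group no test between groups was made. Alternatives were stricter −log10 q, equal numbers of peaks, shorter flanks, 50% reciprocal overlap, 3 kb around the start and, added later, scaling to the control background. Columns of other samples numbered 0. Scripts ran under Python 3.11.15 with matplotlib 3.10.9, scipy 1.17.1, pandas 2.3.3 and numpy 2.4.6.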

Additional observations from a re-analysis of the deposited data

How the results depend on the processing

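Of 60 values recomputed under other settings for 10 counts, 47 stayed within 1.5 times of the reported count. At −log10 q of at least 10, the member peaks dropped to 11 control and 13 siRNA peaks, the shared ones to 9 and 9, and the members with a control peak at the start to 1 (ERV3-1). With a flank of 5 kb the windows held 11 control and 14 siRNA peaks, with 7 and 7 shared, and with a flank of 1 kb 10 and 10 peaks, with 6 and 5 shared; fewer bases searched give fewer peaks. Under every setting tried, 6 or 7 members had a control peak and 7 or 8 a siRNA peak. At −log10 q of at least 5, with as many siRNA as control peaks, with 50% reciprocal overlap, with 3 kb around the start and with siRNA peaks scaled to the control background (added after the data had been seen), every count run under that setting stayed within 1.5 times. No paired analysis was possible because each list holds a group as a whole and its samples cannot be separated, and for the same reason no sample could be left out. Sites under the calling threshold cannot be seen at this depth, and differences between samples cannot be told apart from differences between groups.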
